A study of Drosophila melanogaster with 12 samples.

Results

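Divergent promoters were defined as the stretches of DNA from which a pair of neighbouring protein-coding genes is transcribed in opposite directions. From the Ensembl annotation of the Drosophila melanogaster dm6 assembly, 1814 head-to-head pairs were taken whose 5′ ends lay at most 500 bp apart, with the minus-strand gene on the left and gene bodies that did not overlap. Pairs that shared both 5′ ends were merged, which gave 1701 regions, each running from 500 bp outside one 5′ end to 500 bp outside the other. They held 3481 of 13968 protein-coding genes (24.9%) and 3391 of 13709 distinct protein-coding 5′ ends, and the remaining 10318 ends served as the comparison. The 5′ ends of a pair were separated by a median of 247 bp (quartiles 122 and 338 bp).

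The study profiled RNA polymerase II (Pol II) in Kc167 cells, a female Drosophila line of embryonic origin with hemocyte character, by chromatin immunoprecipitation and sequencing (ChIP-seq) with the antibody 8WG16, which binds the hypophosphorylated tail repeats of the largest Pol II subunit. Cells were nucleofected without RNA (mock), with 100 pmol of a small interfering RNA against AGO2 (siAGO2), an Argonaute protein, or with 2 µg of double-stranded RNA against LaminB (dsLaminB), a protein of the nuclear lamina, and were collected 3 days later. Each treatment had 2 immunoprecipitated libraries, each with its own peak list called over an input. All groups were the same unmodified cell line, and because mock cells received no RNA, depletion and the presence of RNA cannot be told apart. Between the knockdowns, the target and the type of RNA cannot be told apart.

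Head-to-head pairs are common in the compact fly genome, and many of the genes arranged in this way serve functions that every cell needs. A nucleosome-poor stretch between both starts can carry elements that serve either gene, and Pol II engages and often pauses just downstream of each start. In flies, promoters of broadly expressed genes often carry the DNA replication-related element (DRE), bound by DREF, or Motif 1, bound by M1BP, whereas GAGA repeats and a strong initiator are more typical of regulated genes. The insulator protein BEAF-32 binds clusters of the short core CGATA and is known for its presence between divergently transcribed genes.

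The sequences between the 5′ ends of a few pairs are shown so that these elements can be seen at the promoters whose peaks are described later. They are read from the plus strand of dm6 (RefSeq genome of the same assembly), 5′ to 3′, starting 1 base after the minus-strand gene's 5′ end and ending 1 base before that of the plus-strand gene. Capitals mark matches on either strand to TATCGATA (the DRE), CGATA (the BEAF-32 core, which also lies inside the DRE) and GGTCACAC (Motif 1), and runs without capitals had none of these letters. The first 10 were among the closest pairs of their function lists. Of 16 such pairs, 7 held none of these elements, and the first 8 were chosen because they hold one and Rpt4/mldr and Rad60/EloA as examples without. MtnA/CG8500 and Vps52/Elp4 had peaks in mock only, CG6126/CG31287 was among the strongest, and Hel25E/Lam was added because it holds the LaminB gene.
Ripalpha/RpL7, chr2L:10200975-10201003: cccactccgcggccaGTGTGACCgtttgg
Ada2a+Polr2D/moi+Tgs1, chr3R:18255488-18255529: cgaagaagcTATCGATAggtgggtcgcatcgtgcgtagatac
Taf10b/Taf10, chr2L:2767846-2767889: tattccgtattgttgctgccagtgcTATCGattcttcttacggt
SmE/CG34132, chr2L:7885451-7885502: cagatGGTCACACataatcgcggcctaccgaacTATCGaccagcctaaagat
CG9784/Nup153, chrX:16599216-16599240: cccgacacgcCGATAgtatctgaca
l(2)34Fd/Rab14, chr2L:14355086-14355144: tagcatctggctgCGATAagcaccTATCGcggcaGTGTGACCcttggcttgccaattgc
Rab8/Usp32, chr3L:19871079-19871138: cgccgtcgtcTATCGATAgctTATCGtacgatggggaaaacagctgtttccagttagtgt
CG31064/PolA2, chr3R:27239086-27239162: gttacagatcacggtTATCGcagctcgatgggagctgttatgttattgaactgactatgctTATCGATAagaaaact
Rpt4/mldr, chrX:6291246-6291302: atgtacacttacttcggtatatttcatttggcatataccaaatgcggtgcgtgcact
Rad60/EloA, chr3R:23251478-23251562: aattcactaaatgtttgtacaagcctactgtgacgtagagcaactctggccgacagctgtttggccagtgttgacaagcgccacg
MtnA/CG8500, chr3R:9784371-9784652: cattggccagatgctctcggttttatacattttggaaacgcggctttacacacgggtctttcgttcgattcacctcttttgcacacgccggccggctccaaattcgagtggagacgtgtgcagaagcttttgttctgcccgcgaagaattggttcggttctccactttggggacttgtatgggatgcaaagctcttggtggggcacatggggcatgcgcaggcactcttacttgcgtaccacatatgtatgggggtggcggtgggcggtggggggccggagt
Vps52/Elp4, chr2L:5523899-5524138: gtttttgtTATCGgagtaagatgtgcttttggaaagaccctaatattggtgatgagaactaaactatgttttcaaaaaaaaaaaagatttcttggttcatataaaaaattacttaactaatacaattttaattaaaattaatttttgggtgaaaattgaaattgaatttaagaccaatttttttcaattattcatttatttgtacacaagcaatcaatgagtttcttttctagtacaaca
CG6126/CG31287, chr3R:16203084-16203370: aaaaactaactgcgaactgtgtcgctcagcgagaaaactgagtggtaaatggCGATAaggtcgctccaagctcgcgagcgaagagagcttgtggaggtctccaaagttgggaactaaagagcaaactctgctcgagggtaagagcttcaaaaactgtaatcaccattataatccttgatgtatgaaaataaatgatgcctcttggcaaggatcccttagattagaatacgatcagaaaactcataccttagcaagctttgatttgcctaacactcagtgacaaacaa
Hel25E/Lam, chr2L:5542315-5542479: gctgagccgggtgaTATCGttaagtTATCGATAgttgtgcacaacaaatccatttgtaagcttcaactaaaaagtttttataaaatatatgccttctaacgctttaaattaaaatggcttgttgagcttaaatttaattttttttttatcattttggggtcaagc

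Between the ribosomal protein gene RpL7 and its partner lay a single Motif 1, and between SmE, a core protein of spliceosomal particles, and CG34132 lay a Motif 1 and a CGATA core. Polr2D, a Pol II subunit, and Ada2a shared 1 annotated 5′ end opposite that of moi and Tgs1, with a DRE between. Taf10b and Taf10, which both encode subunits of the general factor TFIID, faced each other across a CGATA core. A DRE also lay between Rab8 and Usp32, next to PolA2, a subunit of DNA polymerase alpha, and between Hel25E and Lam.

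In windows of 300 bases, from 250 upstream to 50 downstream of each start, the DRE was found at 18.2% of divergent 5′ ends, 6.47% of other ends and 9.37% of all protein-coding ends. Motif 1 was at 15.5%, 5.14% and 7.69%, the CGATA core at 63.1%, 42.1% and 47.3%, and the E-box CAGCTG at 24.6%, 15.3% and 17.6%, in the same order. Thus these 4 elements were more frequent in the windows of divergent ends. The order was opposite for GAGAG, at 22.2% of divergent, 32.1% of other and 29.7% of all ends, and for the initiator core TCAGT, at 45.7%, 53.5% and 51.5%. TATAAA was at 49.1%, 44.8% and 45.8%. The windows had a median GC content of 36.3% at divergent and 38.7% at other ends. The 5′ ends of a pair were a median of 247 bp apart, so many divergent windows also held the partner's start. Shares at divergent ends can therefore include the partner's elements, and the partner's part in them was not tested. The windows of a pair also overlap, so all these shares are descriptions without a test.

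The peak lists held 5965 and 5601 peaks in mock, 4089 and 5381 after AGO2 knockdown, and 2531 and 4124 after LaminB knockdown. Read numbers are not given by the lists, so the depth is unknown, and depth, enrichment and occupancy cannot be told apart in the length of a list. As a check of cell identity, 7 of 9 hemocyte genes had a peak at a start in all 6 libraries. Among genes of other cell types, elav and Mlc2 also had one in all 6, and brp, Syt1, Mhc, Act88F, vas and bam had none. Of the knockdown targets, AGO2 had a peak in all 6 libraries and Lam in 5. The list of dsLaminB replicate 1 stood apart as the shortest, and some values that rest on it are also given without it.

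Divergent promoters carried Pol II peaks more often than other promoters in every library when counted per 5′ end. A region counted as having a peak when a peak overlapped it by at least 1 bp, which was true of 1414 and 1362 of the 1701 regions in mock (83.1% and 80.1%), 1021 and 1293 in siAGO2 (60.0% and 76.0%), and 471 and 932 in dsLaminB (27.7% and 54.8%). Counted per 5′ end, with windows of 500 bp on either side, 82.7% and 79.7% of divergent ends had a peak in mock, against 35.8% and 33.7% of other ends. After AGO2 knockdown the shares were 59.2% and 75.2% against 24.2% and 31.5%, and after LaminB knockdown 26.9% and 54.0% against 14.7% and 23.5%. The excess of divergent over other ends was 35.7 ± 13.3 percentage points (SD, n = 6 libraries), positive in 6 of 6 libraries (two-sided exact sign-flip permutation test, p = 0.03125, 0.0382 after Benjamini-Hochberg adjustment over 11 such comparisons). This p is the smallest that 6 libraries can give.

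A window at a divergent end also holds the partner's promoter, so a share per end counts 2 starts. A region with 2 promoters, each as likely to have a peak as other promoters and independent of one another, would have one in 58.8% and 56.1% of cases in mock, 42.6% and 53.1% after AGO2 knockdown, and 27.3% and 41.6% after LaminB knockdown. Divergent regions exceeded these values by 17.0 ± 9.26 points (n = 6, exact sign-flip p = 0.03125, adjusted 0.0382), although in dsLaminB replicate 1 the observed 27.7% and the computed 27.3% were nearly equal. Without that library the mean excess was 20.4 points. The excess was smaller in shorter lists. For peaks whose −log10 q was 5 or higher it was 8.06 ± 10.2 points (exact sign-flip p = 0.15625, higher in 5 of 6 libraries), at 21.3 and 17.2 points in mock and −5.29 points in dsLaminB replicate 1. Taking the strongest 2531 peaks of each list, 27.7% to 29.5% of regions had a peak in the 6 libraries, which was 1.18 ± 1.09 points below the value for 2 other promoters (exact sign-flip p = 0.0625, higher in 1 of 6), and the excess per end shrank to 12.1 points.

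The base at the 5′ end itself, which does not depend on the window, lay under a peak at 71.0% and 64.6% of divergent ends in mock, 40.4% and 57.1% after AGO2 knockdown, and 14.7% and 34.7% after LaminB knockdown. At other ends the shares were 29.0% and 26.2%, 17.6% and 23.1%, and 10.4% and 16.2%. The difference was 26.7 ± 14.2 points (6 of 6 libraries, exact sign-flip p = 0.03125, adjusted 0.0382). A single peak over both ends of a pair counts here for each of them, so this share too can include the partner's peak. Other ends without a further protein-coding start within 2000 bp, 5914 in number, had a peak within 500 bp in 32.0% and 30.0% of cases in mock.

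**Figure D1:**
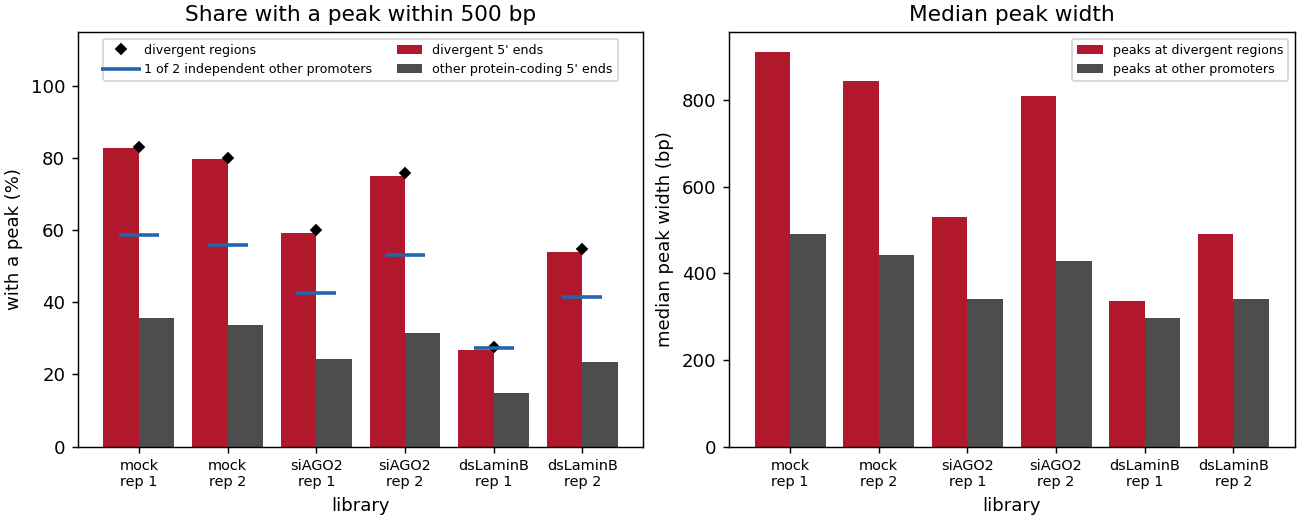
Left, the percentage of divergent 5′ ends and of other protein-coding 5′ ends with a peak within 500 bp in each of the 6 libraries (bars), with the percentage of divergent regions with a peak (diamonds) and the value computed for 2 independent other promoters (blue lines). Right, the median width in bp of peaks at divergent regions and at other promoters. Divergent ends lie above other ends in every library, while the diamond and the blue line meet in dsLaminB replicate 1, at 27.7% and 27.3%.

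Regions differed in how many libraries gave them a peak. All 6 libraries had one at 465 regions (27.3%), 5 at 409, 4 at 191, 3 at 222, 2 at 84 and 1 at 60, and 270 regions (15.9%) had none. Without dsLaminB replicate 1, 871 regions (51.2%) had a peak in all the remaining libraries. Per 5′ end, 26.6% of divergent and 14.2% of other ends had a peak in all 6, and 16.3% of divergent and 63.0% of other ends had none. With dsLaminB replicate 1 left out, 50.3% of divergent and 21.3% of other ends had a peak in all the remaining libraries. Of the 270 regions with none, 41 were regions of histone genes, most of which lie in a tandem repeat. Reads with mapping quality under 20 had been removed by the authors, and the part of this filter in the missing peaks was not tested. Leaving out the 42 regions of the histone cluster moved the share of regions with a peak to 85.2% and 82.1% in mock, 61.5% and 77.9% after AGO2 knockdown, and 28.4% and 56.1% after LaminB knockdown.

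The DRE was found in the middle 300 bases of 5.93% of the regions without a peak, 20.5% of those with a peak in 1 to 5 libraries and 16.8% of those with a peak in all 6. For Motif 1 the shares were 2.59%, 15.1% and 14.2%, and for GAGAG 30.0%, 18.6% and 22.2%. Regions without any peak were therefore poorer in both housekeeping elements and richer in GAGAG, as a description without a test. The 41 histone regions among the 270 without a peak were not left out here. Most are copies of a tandem repeat, so a repeated sequence is counted many times, and its part in these shares was not tested.

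The peaks at divergent regions were wider than those at other promoters. Median widths were 910.5 and 844.5 bp in mock, 529 and 810 bp after AGO2 knockdown, and 335 and 491 bp after LaminB knockdown, against 491 and 441 bp, 341 and 427 bp, and 297 and 340 bp at other promoters. The difference was 264 ± 160 bp (6 of 6 libraries, exact sign-flip p = 0.03125, adjusted 0.0382). It was seen in each quintile of a list by significance, with a range over libraries of 155 to 317 bp in the weakest quintile and 1.5 to 443 bp in the strongest, where 1.5 bp was that of dsLaminB replicate 1.

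**Figure D2:**
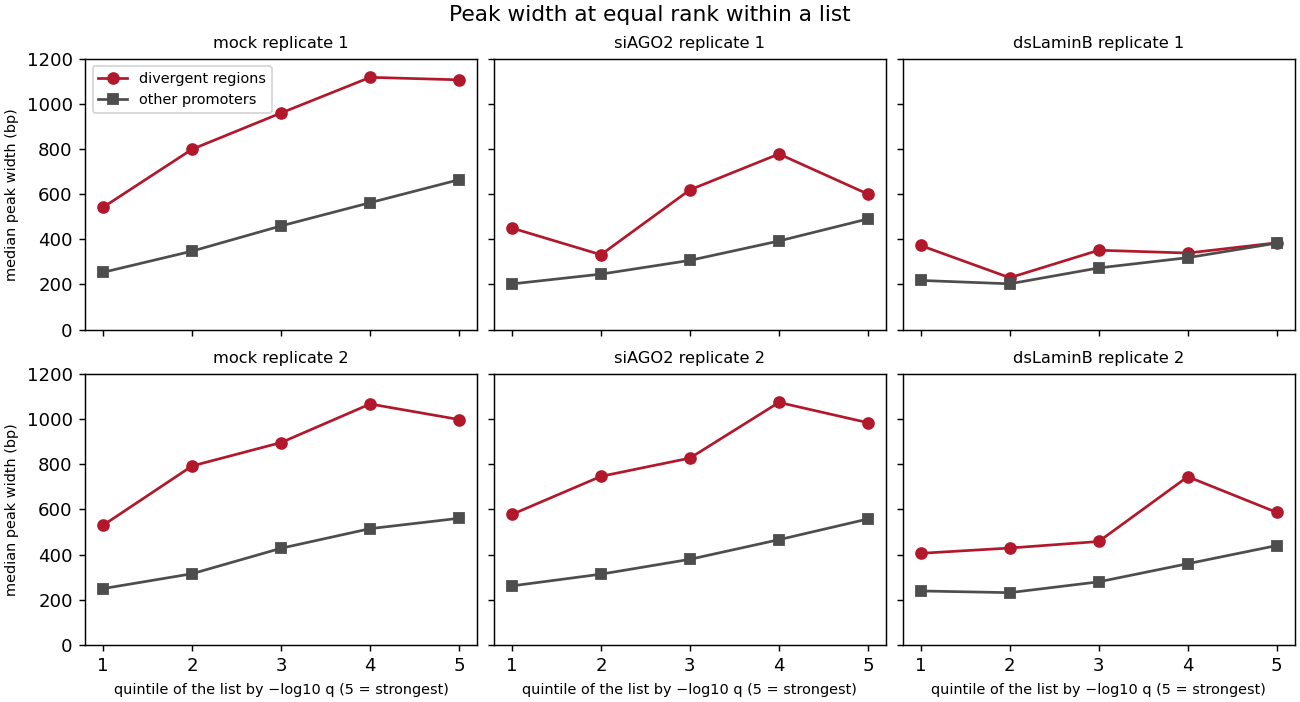
Median peak width in bp for peaks at divergent regions (circles) and at other promoters (squares) within each quintile of a list, ordered by −log10 q from weakest (1) to strongest (5), 1 panel per library. The circles lie above the squares in every panel and quintile, by as little as 1.5 bp in the strongest quintile of dsLaminB replicate 1.

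Width went with the number of 5′ ends that a peak covered. In mock, 1093 of the peaks at divergent regions in replicate 1 and 995 in replicate 2 covered 2 or more ends, with median widths of 1007 and 971 bp. Peaks over 1 end only were 433.5 and 388.5 bp wide at divergent regions (202 and 194 peaks), narrower than the 502.5 and 458 bp of other promoters (2402 and 2192 peaks). After AGO2 knockdown these medians were 306 and 417 bp against 372 and 457.5 bp, and after LaminB knockdown 289 and 303 bp against 311 and 363 bp. Peaks over 2 or more ends were also narrower at divergent regions, since the 262 and 224 such peaks at other promoters in mock had medians of 1431 and 1333.5 bp. Within each of these classes peaks at divergent regions were thus the narrower ones in the 6 libraries, and a larger part of them covered 2 or more ends. No test was made of these widths, because a wide peak at a divergent region reaches the second end and leaves the class of 1 end.

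A single peak over both 5′ ends was the usual form. It was found in 78.4% and 73.8% of the regions with a peak in mock, 57.1% and 67.5% after AGO2 knockdown, and 38.4% and 53.1% after LaminB knockdown. A peak over the minus-strand gene's end alone was found in 6.93% and 6.75%, 10.8% and 7.58%, and 14.6% and 10.3%, and over the plus-strand gene's end alone in 7.21% and 7.27%, 9.99% and 7.73%, and 14.9% and 10.5%. The shares of both strands were close in each library. In 0 regions did separate peaks cover the 2 ends. The smallest gap between neighbouring peaks was 589 to 594 bp in the 6 lists and the smallest peak was 147 bp wide, so the peak calling joined enriched stretches closer than that, and ends at most 500 bp apart could not appear under separate peaks.

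Where only one end was covered, it was nearly always the same end. Of 279 regions with a peak over 1 end only in at least 2 libraries, 278 (99.6%) had it over the same gene in each of them. CG6126/CG31287 was such a region, with a peak over the minus-strand end only in all 6 libraries. At the other extreme, 167 regions had a single peak over both ends in all 6. Of the 980 regions with a peak over both ends in both mock libraries, 397 had any peak in dsLaminB replicate 1, where it covered both ends in 181, 1 end in 108 and neither in 108.

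Coverage by peaks was highest just inside the genes. Around divergent ends the share under a peak was highest 75 to 100 bp downstream in the 6 libraries, and around other ends 100 to 125 bp downstream. Upstream the profiles differed. In mock replicate 1, 67.3% of divergent ends had a peak over the base 250 bp upstream and 57.2% over that 250 bp downstream, against 8.95% and 26.9% of other ends. In dsLaminB replicate 1 the shares were 12.6% and 5.96% at divergent ends, and 1.23% and 5.10% at other ends. For a divergent end, the upstream side is the partner gene.

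**Figure D3:**
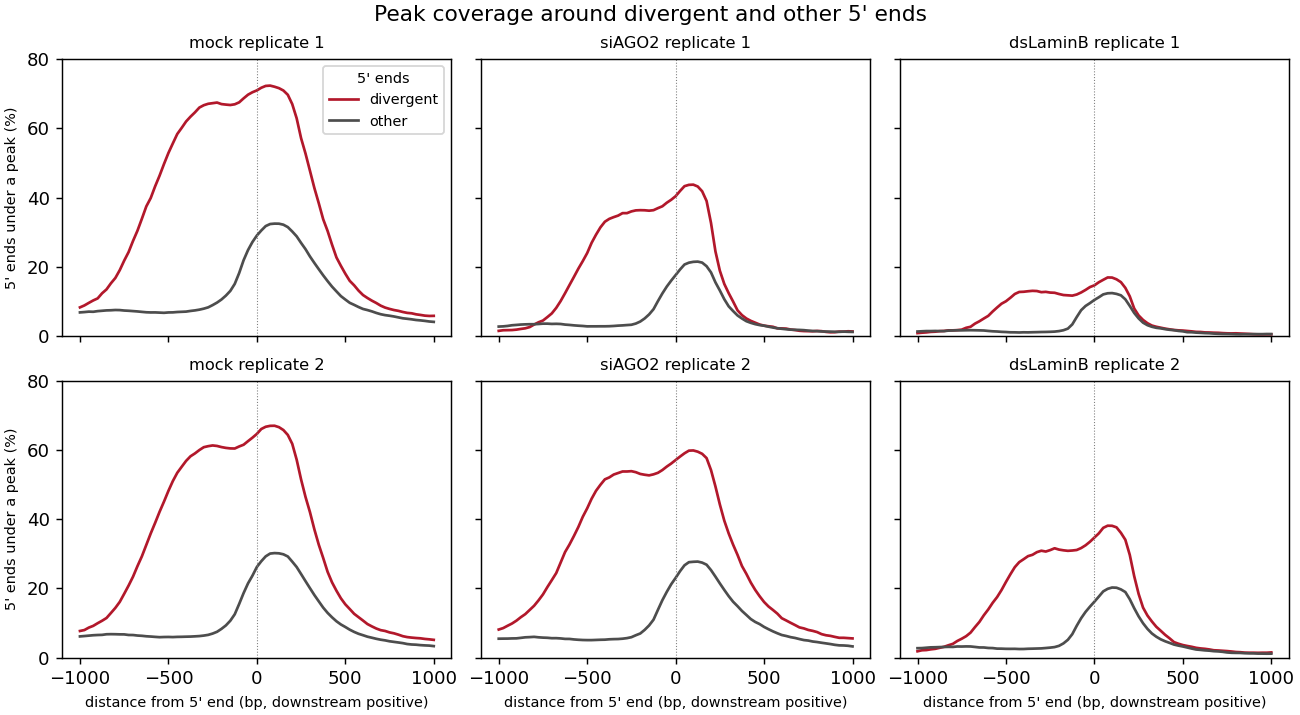
Percentage of divergent and of other protein-coding 5′ ends that lie under a peak, at each distance from the 5′ end in bp (downstream positive), 1 panel per library. The curves of divergent ends stay high on the upstream side, where the partner starts, with 67.3% at 250 bp upstream in mock replicate 1 against 8.95% for other ends.

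The distance between the centre of a peak and the nearest 5′ end of its class did not separate them, with medians of 108.5 and 115.5 bp at divergent regions against 148 and 143 bp at other promoters in mock, 114.5 and 125.5 against 109 and 148 bp after AGO2 knockdown, and 116 and 120 against 88.2 and 114 bp after LaminB knockdown. The mean difference was −8.38 ± 25.4 bp (higher in 3 of 6 libraries, exact sign-flip p = 0.5, adjusted 0.5). Given with its side, downstream positive, the median centre was 29 and 35.5 bp at divergent regions in mock against 124.5 and 122 bp at other promoters. This difference, −43.5 ± 42.4 bp over the 6 libraries, did not pass the test (lower in 5 of 6, exact sign-flip p = 0.09375, adjusted 0.103), and in dsLaminB replicate 1 it was opposite, at 90.5 against 73.5 bp. Centres lay upstream of the nearest end in 43.5% and 43.1% of peaks at divergent regions in mock, 41.6% and 36.3% after AGO2 knockdown, and 29.8% and 35.5% after LaminB knockdown, against 11.6% to 14.8% at other promoters (difference 24.9 ± 4.99 points, 6 of 6 libraries, exact sign-flip p = 0.03125, adjusted 0.0382). Upstream of a divergent end is the side of its partner.

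Peaks differed with the spacing of the 5′ ends. Pairs up to 100 bp apart (349 regions) had a peak in 90.5% of cases in mock replicate 1, those 101 to 200 bp apart (309 regions) in 68.9%, and those 201 to 300, 301 to 400 and 401 to 500 bp apart in 85.5%, 83.1% and 86.4%. Of the 42 regions of the histone cluster, 38 were 101 to 200 bp apart and 4 closer, and without them the first 2 shares were 91.6% and 78.2%. Over all regions, the median width in the 5 bins was 774.5, 787, 916, 1003 and 1087 bp. In dsLaminB replicate 1 the shares were 19.8%, 23.9%, 24.5%, 34.5% and 41.4%, and 20.0% and 27.3% in the first 2 bins without the histone cluster. In dsLaminB replicate 2 they were 54.2%, 45.6%, 52.0%, 60.2% and 65.9%. In both, pairs over 300 bp apart had a peak more often than closer ones. Median rank within the list was 44.5%, 47.1%, 42.2%, 52.9% and 58.9% over the 5 bins in mock replicate 1, and 19.9%, 32.1%, 34.4%, 44.8% and 42.2% in dsLaminB replicate 1, so that it was higher for pairs over 300 bp apart than for closer ones.

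In widely spaced pairs the coverage fell between the starts. For pairs 401 to 500 bp apart in mock replicate 1, 64.5% of regions lay under a peak at the midpoint, 73.6% at 375 bp to its left and 76.4% at 275 bp to its right. In dsLaminB replicate 1 these pairs had 19.1% at the midpoint and maxima of 28.2% and 29.5% on either side. For pairs up to 100 bp apart, the highest coverage in mock replicate 1, 83.7%, was at the midpoint itself. The limit of 500 bp was not a natural border, because the 107 regions 451 to 500 bp apart had a peak in 86.0% and 84.1% of cases in mock, and 102 pairs just outside the limit, 501 to 550 bp apart, in 81.4% and 76.5%.

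**Figure D4:**
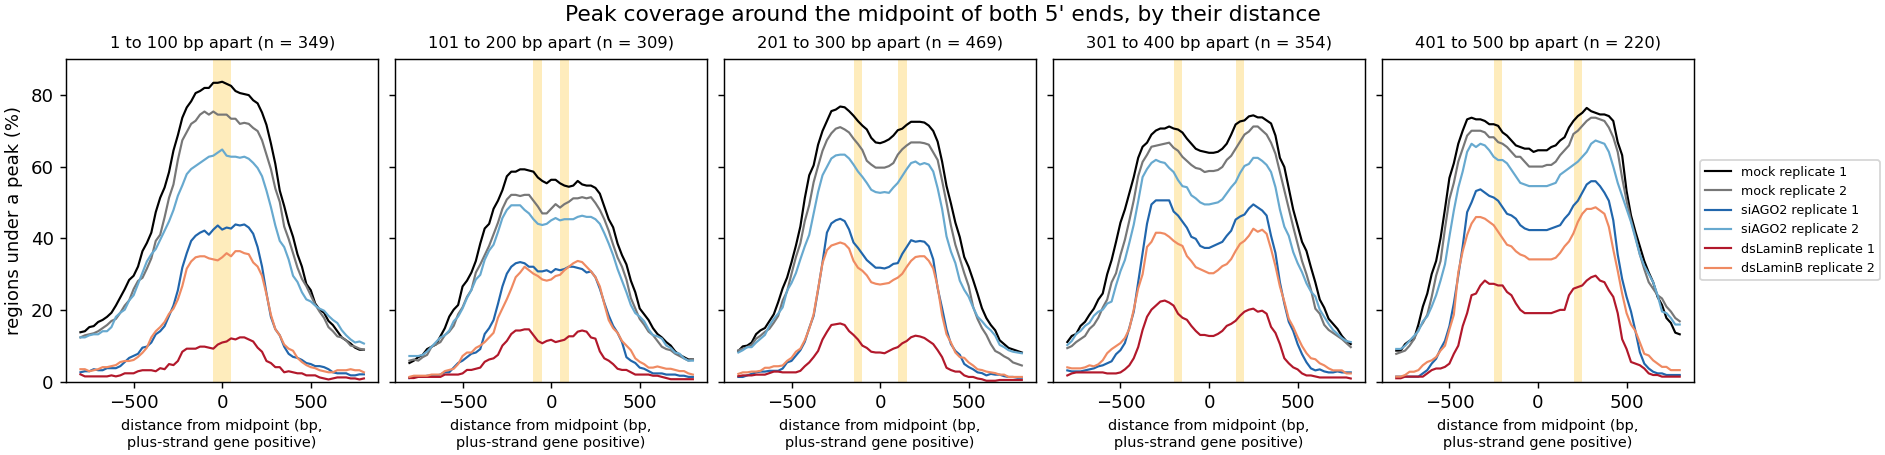
Percentage of divergent regions under a peak at each distance in bp from the midpoint of both 5′ ends (plus-strand gene positive), in 5 panels by the distance between the ends, 1 line per library; the shaded bands show where the ends of that bin lie. In the 3 panels of widest spacing every line dips at the midpoint, with 64.5% at the midpoint of pairs 401 to 500 bp apart in mock replicate 1.

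Although frequent, the peaks at divergent regions ranked lower than those at other promoters. Their median rank, given as the percentage of the list's peaks with a lower −log10 q, was 46.5% and 45.0% in mock, 36.0% and 44.1% after AGO2 knockdown, and 36.9% and 40.0% after LaminB knockdown, against 54.4% to 55.9% at other promoters. The difference was −13.6 ± 4.19 points (lower in 6 of 6 libraries, exact sign-flip p = 0.03125, adjusted 0.0382). The fold enrichment computed by the authors was lower too, with medians of 5.25 and 4.73 against 6.11 and 5.52 in mock, 3.79 and 5.21 against 4.73 and 6.18 after AGO2 knockdown, and 4.06 and 3.86 against 5.10 and 4.73 after LaminB knockdown (difference −0.912 ± 0.0882, exact sign-flip p = 0.03125, adjusted 0.0382). Peaks at divergent regions made up 8.61% to 10.2% of the strongest quintile of a list, 18.8% to 34.3% of the middle and 16.4% to 35.0% of the weakest. In mock they were most frequent in the middle quintile (34.3% and 32.7%), with 16.4% and 22.1% in the weakest. Peaks at divergent regions were also wider, and the part of width in their rank and fold was not tested.

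The comparison of each knockdown with mock asks whether Pol II peaks of 8WG16 at these promoters change when AGO2 or LaminB is depleted. That between the knockdowns asks whether such a change differs between them. Peak lists record what passed a threshold in a library, so fewer cells with Pol II at a site and less Pol II per cell cannot be told apart. The antibody binds hypophosphorylated Pol II, so a change in phosphorylation cannot be told apart from these either. Divergent regions had a peak in 81.6 ± 2.16% of cases in mock, 68.0 ± 11.3% after AGO2 knockdown and 41.2 ± 19.2% after LaminB knockdown (SD, n = 2). All 4 knockdown libraries were below both mock libraries. The difference from mock was −13.6 points in siAGO2 (pooled SD 8.14) and −40.4 points in dsLaminB (pooled SD 13.6), and siAGO2 exceeded dsLaminB by 26.8 points (pooled SD 15.7). With 2 libraries against 2, the exact permutation test cannot go below p = 0.333, which each of these had, so no difference between treatments could be called.

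The lists were shorter in the knockdowns, and the difference in share was not seen at equal list length. With the strongest 2531 peaks of each list, regions had a peak at a share of 29.3% and 29.0% in mock, 29.2% and 29.5% after AGO2 knockdown, and 27.7% and 28.7% after LaminB knockdown, which made the differences from mock 0.118 and −0.999 points. Over whole lists, the siAGO2 difference rested on replicate 1. It was −5.58 points without that library and −21.6 without siAGO2 replicate 2. The dsLaminB difference was −26.8 points without replicate 1 and −53.9 without replicate 2. The excess of divergent over other ends likewise was 46.5 ± 0.688 points in mock, 39.3 ± 6.20 after AGO2 knockdown and 21.3 ± 12.9 after LaminB knockdown over whole lists, and 11.6 to 12.4 points in the 6 libraries at equal length.

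Peak width at divergent regions differed between treatments in the same order and kept that order at equal list length. The group medians averaged 877.5 ± 46.7 bp in mock, 669.5 ± 199 bp in siAGO2 and 413 ± 110 bp in dsLaminB (n = 2; exact permutation p = 0.333 for each pair of treatments). With the strongest 2531 peaks the medians were 1112 and 1031 bp in mock, 687.5 and 976 bp after AGO2 knockdown, and 335 and 606 bp after LaminB knockdown. Peaks at other promoters had medians of 620 and 545, 406 and 513, and 297 and 374 bp in the same lists. The siAGO2 difference over whole lists, −208 bp, was −67.5 bp without siAGO2 replicate 1 and −348.5 bp without siAGO2 replicate 2.

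Loss and gain were counted per 5′ end. An end was lost when both mock libraries and neither library of a knockdown had a peak within 500 bp, and gained in the opposite case. In siAGO2, 150 of 2680 divergent ends were lost (5.60%), against 6.88% of all protein-coding ends and 7.88% of other ends. In dsLaminB, 845 of 2680 were lost (31.5%), against 30.2% of all ends and 29.2% of other ends. For dsLaminB replicate 2 taken alone, 855 of the 2680 divergent ends (31.9%) had no peak, against 30.8% of all ends. Replicate 1 thus did not set this count. Both knockdowns had lost 145 divergent ends (5.41%), against 6.45% of all ends, and these comparisons share the mock libraries. The divergent shares were near the background in each case. Gained were 0 of 562 divergent ends in siAGO2 (background 0.0561%) and 0 of 562 in dsLaminB (background 0%).

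Because peaks at divergent promoters ranked lower, persistence was also compared between ends of like rank in mock. Of ends with a peak in both mock libraries, siAGO2 replicates 1 and 2 had a peak at 74.7% and 93.4% of divergent ends and at 72.5% and 91.1% of other ends, while dsLaminB replicates 1 and 2 had one at 34.1% and 68.1% of divergent and 44.1% and 70.1% of other ends. In the middle quintile of mock rank, with 785 divergent and 711 other ends, divergent ends kept a peak more often in all 4 knockdown libraries, at 94.8% against 79.7% and 99.1% against 98.2% in siAGO2, and at 27.8% against 21.8% and 87.8% against 77.2% in dsLaminB. In the strongest quintile, with 234 divergent and 817 other ends, the order was opposite, at 93.6% against 96.3% in dsLaminB replicate 1. The lower overall persistence of divergent ends in dsLaminB replicate 1 thus went together with their lower rank in mock. With 4 libraries no test of this difference was made.

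The genes served by divergent promoters were examined in 12 lists of gene functions. Head-to-head pairs held 75.7% of the histone genes (87 genes), 69.9% of the mitochondrial ribosomal protein genes (51 of 73), 66.7% of the nuclear pore and transport genes (18 of 27), 63.6% of the splicing factor genes (21 of 33), 58.0% of the genes for general transcription factors and RNA polymerase subunits (47 of 81) and 56.1% of those for DNA replication and repair (23 of 41), against 24.9% of all protein-coding genes. Cytosolic ribosomal protein genes, at 38.7% (36 of 93), and oxidative phosphorylation subunits, at 38.4% (33 of 86), were lower. Vesicle transport, translation factors with aminoacyl-tRNA synthetases, and proteasome subunits lay between, at 50.0%, 45.2% and 41.7%. Genes of cuticle proteins and chemoreceptors, which serve differentiated tissues, were rarely paired, at 7.33% (22 of 300).

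Occupancy differed between the lists. Over all 1701 regions, 79.4% had a peak in both mock libraries and 27.3% in all 6. Of the 36 regions with a cytosolic ribosomal protein gene, 36 had a peak in both mock libraries and 29 in all 6 (80.6%). The 51 regions with a mitochondrial ribosomal protein gene had a peak in 51 and 47 cases in mock, 28 and 43 after AGO2 knockdown, and 7 and 26 after LaminB knockdown, so that 7 (13.7%) had one in all 6. Both groups of ribosomal protein genes were thus nearly fully occupied in mock, and the mitochondrial group had fewer peaks in the shorter lists. All 19 nuclear pore and transport regions had a peak in both mock libraries, and so did 44 of 46 regions of general transcription factors and RNA polymerase subunits, 19 of 21 of splicing factors and 21 of 23 of DNA replication and repair. In dsLaminB replicate 1 these lists had 6, 8, 3 and 5 regions with a peak, and in replicate 2 they had 13, 27, 12 and 16. The 45 vesicle transport regions had a peak in all 6 libraries in 21 cases (46.7%). For this list and both ribosomal protein lists, the count in all 6 equalled the count in dsLaminB replicate 1, so it rested on that library. Of the 17 cuticle and chemoreceptor regions, 2 had a peak in both mock libraries and 13 had none anywhere.

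**Figure D5:**
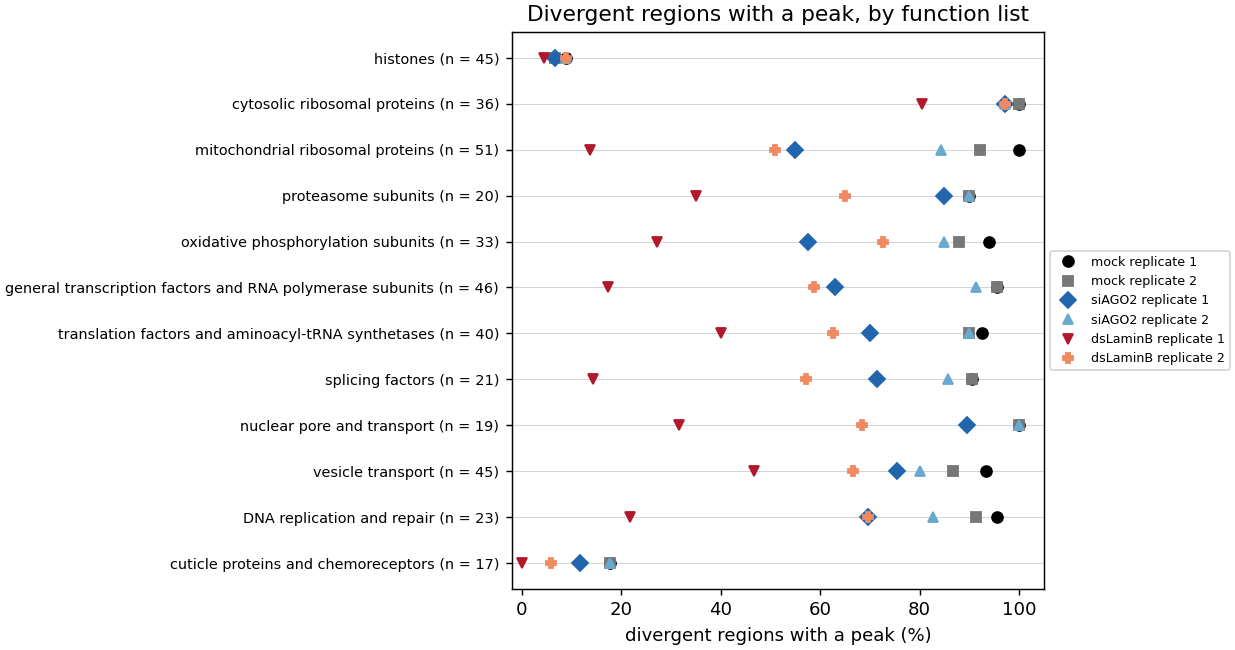
Percentage of divergent regions with a peak in each library (1 symbol per library) for 12 lists of gene functions, with the number of regions of each list in parentheses. The 36 regions of cytosolic ribosomal protein genes are near the right edge in all libraries but dsLaminB replicate 1, at 80.6%, and histone, cuticle and chemoreceptor regions are near the left edge.

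The difference between paired and unpaired promoters was also present within genes of like function. For the 10 lists other than histones and cuticle or chemoreceptor genes, 332 genes lay in pairs and 324 outside. The lists were pooled although they differ in the share of paired genes, and no comparison was made within a single list. Of those in pairs, 95.5% and 91.9% had a peak within 500 bp in mock, 70.8% and 87.0% after AGO2 knockdown, and 32.2% and 65.7% after LaminB knockdown, against 75.0% and 72.8%, 52.5% and 66.0%, and 25.6% and 49.1% of those outside. The difference was 17.0 ± 5.33 points (6 of 6 libraries, exact sign-flip p = 0.03125, adjusted 0.0382). Peaks were wider by 224 ± 99.3 bp at the paired genes (6 of 6 libraries, exact sign-flip p = 0.03125, adjusted 0.0382). Here too the windows of paired genes included the partner's start.

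Among regions with a peak in all 6 libraries, the highest mean rank was found at CG30016/nclb, CG6126/CG31287, Sfp26Ad/Gpdh1 and CG10863/CG14982. The last was covered by a single peak over both ends in each library, 1249 and 1248 bp wide in mock, 1016 and 1042 bp after AGO2 knockdown, and 945 and 1021 bp after LaminB knockdown, and its rank lay between 88.4% and 97.7%. CG6126/CG31287 had narrower peaks of 621 and 561 bp, 616 and 574 bp, and 446 and 463 bp, in the same order. At CG30016/nclb the ranked peak overlapped only the edge of the region on the side of CG30016. Its centre lay outside the region in all 6 libraries and it covered neither 5′ end, so this rank is not that of a peak over the starts. A weaker peak also overlapped the region in every library but dsLaminB replicate 1. This weaker peak covered the nclb end in both mock libraries and siAGO2 replicate 2. Gpdh1 encodes glycerol-3-phosphate dehydrogenase, and its peaks, 745 and 717 bp wide in mock and 444 and 459 bp in dsLaminB, covered neither 5′ end in 5 of 6 libraries. The widest peaks over both ends in all 6 libraries were those at cnk/l(2)k01209, CG6693/RpL3 and Hsp67Bc/CG4456.

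The Hsp67Bc/CG4456 peak, at the gene of a small heat shock protein, was 5578 and 5469 bp wide in mock, 780 and 783 bp after AGO2 knockdown, and 673 and 730 bp after LaminB knockdown. The rank of this peak was 84.0% and 90.1% in mock against 41.7% and 62.0% after AGO2 knockdown and 15.9% and 38.7% after LaminB knockdown. The region was chosen for its mean width, and in mock most of the peak lay outside the region, on the side of CG4456. Median widths were lower in the knockdown lists at other promoters too. At CG6693/RpL3 the widths were 3422 and 3648 bp, 1121 and 3538 bp, and 1012 and 2475 bp, so that replicates of a knockdown differed more than mock and siAGO2 replicate 2. At cnk/l(2)k01209, where cnk encodes a scaffold of Ras signalling, they were 3266 and 3240 bp, 2304 and 3251 bp, and 2285 and 2216 bp.

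Peaks in both mock libraries and in no knockdown library were strongest at CG4646/CG17059, MtnA/CG8500 and Vps52/Elp4, 3 of the 67 regions (4.96% of 1350) with this pattern. Counted per 5′ end, it was found at 5.41% of divergent and 6.45% of all ends with a peak in both mock libraries. At CG4646/CG17059 the peaks were 1620 and 1436 bp wide with −log10 q of 54.2 and 35.2 and ranks of 84.2% and 83.1%. MtnA, a copper-binding metallothionein, had peaks of 266 and 323 bp over its own end only, at ranks of 39.9% and 42.0%. Vps52, of a vesicle tethering complex, and Elp4, of the Elongator complex, shared peaks of 901 and 913 bp at ranks of 28.2% and 38.4%. The first of these stood in the upper quintile of both mock lists and the others below the middle. These 3 were chosen for their pattern, and their values are a description.

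Hel25E/Lam, with 5′ ends 166 bp apart, holds the gene of the depleted LaminB beside that of an RNA helicase of mRNA export. A single peak over both ends was 1371 and 1782 bp wide in mock and 825 and 1485 bp after AGO2 knockdown. Among the dsLaminB libraries, only replicate 2 had a peak there, one of 189 bp over the Lam end only. The −log10 q was 11.7 and 6.88 in mock, 2.43 and 3.37 after AGO2 knockdown, and 2.15 in dsLaminB replicate 2. AGO2 was not part of a head-to-head pair.

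Of the 24 closest pairs of the function lists, 18 had a peak in both mock libraries. Compared with both mock widths, the peak was narrower in 14 of these in siAGO2 replicate 1 and absent in 4. In siAGO2 replicate 2 it was narrower in 6 and wider in 7. In dsLaminB replicate 2 it was narrower in 13 and absent in 4, and 16 had no peak in dsLaminB replicate 1. Ripalpha/RpL7 had peaks of 862 and 1288 bp in mock, 341 and 962 bp after AGO2 knockdown, and 392 and 736 bp after LaminB knockdown. Taf10b/Taf10 had 636 and 601 bp, 163 and 230 bp, and, in dsLaminB, none in replicate 1 and 158 bp in replicate 2. SmE/CG34132 had 1020 and 1084 bp, 473 and 640 bp, and none and 302 bp. Wider peaks in siAGO2 replicate 2 were seen at Rpt4/mldr, with a proteasome subunit gene, at 744 and 1299 bp in mock against 1555 bp, at Rab8/Usp32, at 757 and 618 bp against 1174 bp, and at Rad60/EloA, at 753 and 703 bp against 883 bp. The replicates of siAGO2 therefore differed in direction at several close pairs. Ada2a+Polr2D/moi+Tgs1, Fitm/AlaRS-m, mRpL23/CG9004 and CG31064/PolA2 each had a peak in both mock libraries and siAGO2 replicate 2 only, with widths at Ada2a+Polr2D/moi+Tgs1 of 530, 745 and 866 bp. CG9784/Nup153, next to a protein of the nuclear pore basket, had peaks of 1602 and 1440 bp, 358 and 427 bp, and none and 318 bp.

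Some pairs of these lists had few or no peaks. Lfg/AspRS, with an aminoacyl-tRNA synthetase gene, had no peak in any library, and CG30161/ND-19, with a subunit of respiratory complex I, had one of 272 bp in mock replicate 1 only. The closest pairs without any peak were Cyp4d1/CG3630, CG12289/CG7551 and CG14007/CG34011, at 16, 20 and 21 bp. Gr61a, a gustatory receptor gene, and its partner JMJD5 had a single peak of 449 bp in mock replicate 2, with a rank of 0.5%.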

How the data were processed

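Divergent promoters were examined in the deposited peak lists of 6 immunoprecipitated libraries, and the 6 input libraries entered through the authors' peak calling. Per the submitters' processing notes, the authors used cutadapt 1.10, Bowtie2, Picard 2.11.0 and MACS2 2.1.1.20160309. Reads were aligned to dm6, those with mapping quality under 20 and duplicates were removed, and each replicate was called separately in broad mode. The deposited lists hold positions, a score (not used), the authors' fold enrichment as a ratio, and −log10 p and −log10 q. Fold and −log10 q were used within a list only. Depth is unknown.

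Pairs, windows of 500 bp and motifs were computed with Python 3.11.15, pandas 2.3.3 and scipy 1.17.1 from Ensembl release 115 genes and the RefSeq genome, and positions count from 1. No peak lay beyond a chromosome's end. Groups and replicate numbers came from the sample titles. No source used here says whether the replicate libraries came from separate cultures, so p-values measure the spread between these libraries, which may be technical. Classes were compared within libraries by exact sign-flip tests over 6 libraries, and treatments by exact permutation of library labels, all two-sided. The steps were tested on simulated data.

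The members and lists were chosen with earlier results of these data known, and the widths by number of ends, the comparison with 2 other promoters in shorter lists, and the counts without dsLaminB replicate 1 after seeing values. Named regions were the 4 of highest mean rank among those with peaks in all 6 libraries, the 3 strongest in mock only, the 2 closest of each function list, the 3 widest, the 3 closest without a peak, and those of AGO2 and Lam. Gene lists were matched by symbol. Alternatives were a −log10 q of at least 5, equal list length, joining within 1000 bp, peak centres, windows of 250 bp, pairs within 250 bp, isolated other promoters, main arms, a replicate block and leaving out each library.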

Additional observations from a re-analysis of the deposited data

How the results depend on the processing

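Share, width and rank differences between divergent and other promoters kept their direction under all 8 alternatives of processing and with any 1 library left out. With 5 libraries the smallest p was 0.0625, and the differences ranged from 33.4 to 40.4 points in share, 232.7 to 309 bp in width and −14.6 to −12.7 points in rank. The share difference was 23.9 points for peaks with −log10 q of at least 5 and 12.1 points at equal list length. At that length, 3 treatment differences changed sign: the share of regions, siAGO2 minus mock, at 0.118 points, and the excess over other ends, at 0.688 points for siAGO2 and 0.63 points for dsLaminB minus mock. The difference in distance to the nearest end was 6.5 bp against isolated promoters. Replicate numbers did not pair the libraries (correlations of replicate deviations between −0.083 and 0.072). With the number as a block, the treatment differences kept their values, for example −13.6 and −40.4 points in the share of regions, and the smallest p was 0.5. Of 113 values under 9 alternatives, 109 kept their direction, but some of these could not change. The replicate block left all treatment differences as they were, and joining peaks left all shares. Isolated other promoters left the region shares and the widths at divergent regions. Leaving out 1 library turned no treatment difference, and the cause of the differences between settings was not tested. The cause of the shorter knockdown lists cannot be read from peaks.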
